A study of Homo sapiens with 4 samples.

Results

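The transcription factor p53 activates genes that stop the cell cycle, repair DNA, limit growth signalling or kill the cell, and 10 of its established target genes are described here: *MDM2*, *BTG2*, *CDKN1A*, *FAS*, *SESN1*, *SESN2*, *ZMAT3*, *RRM2B*, *GDF15* and *FDXR*. They were found by gene symbol among the 28278 genes of the deposited count table, and all 10 were among the 15150 genes that passed the filter on low counts. They had been picked because their values in this same comparison rise, stay flat or fall, so the split itself is given as a description, without a test. In a stressed cell, p53 is freed from its inhibitor MDM2, binds response elements near its targets and raises their transcription. MDM2 is itself a target, which closes a negative feedback loop. Many of these genes also answer to other stress pathways, for example to ATF4, the transcription factor of the integrated stress response.

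RNA-seq of polyadenylated RNA was performed on cells labelled HepG2, a human liver cancer line, in 2 groups of 2 libraries. In both groups lentivirus had delivered Cas9, together with a control sgRNA in the control group and a *USP22* sgRNA in the other, and both had received 10 µM Sorafenib, a multikinase inhibitor, for 24 h. These were infected cell populations and not single clones, cells without Sorafenib were not analysed here, and the question was which transcripts differ when USP22, a deubiquitinase of the SAGA chromatin complex, has been targeted.

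The libraries held from 62030307 to 64728272 counts. Counts of *USP22* were 16450 and 16537 in the control, and 20279 and 20368 under the *USP22* knockout label (log2 fold change 0.22, standard error 0.034, adjusted p = 0.000394 by edgeR's quasi-likelihood test), so its transcript was not lower under the knockout label and each direction below follows that label. The paper checked its *USP22* knockout at the protein level, by Western blot. These libraries hold no measure of protein, so the counts alone do not tell whether the knockout worked. The markers also went against the liver label. Of 20 hepatocyte marker genes, 11, *ALB* and *APOA1* among them, were listed at 0 in all 4 libraries, and the whole list summed to 0.443 to 0.561 CPM (counts scaled to library size with TMM factors) in the control and 0.48 to 0.913 CPM in the libraries labelled knockout. The epithelial markers *CDH1* and *EPCAM* had 0 to 4 counts, and *KRT19* was listed at 0 in all 4 libraries. The keratin gene *KRT7* averaged 2277 CPM in the control and 1255 CPM under the knockout label. *KRT8* (775 and 601 CPM) and *KRT18* (1000 and 743 CPM) were abundant too. Among mesenchymal markers, *VIM* (1073 and 818 CPM), *COL3A1* (503 and 573 CPM) and *FN1* (279.5 and 610.7 CPM) were abundant. *COL1A1* (56.1 and 60.4 CPM), *ACTA2* (12.3 and 6.58 CPM) and *PDGFRB* (8.91 and 4.53 CPM) were lower. *THY1* had 12 to 31 counts per library and *COL1A2* 0 to 7. Some of these markers differed between the groups, with log2 differences of -0.86 for *KRT7*, 1.13 for *FN1* and -0.98 for *PDGFRB* (adjusted p = 1.7e-07, 8.85e-09 and 0.000211, edgeR). The counts thus do not show the cells to be HepG2, and the part of these features in the results below was not tested. In bulk RNA, a change in the RNA of each cell cannot be told apart from a change in the mixture of cells.

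As a description, the sequence around these genes was searched for the p53 response element, without a measure of p53 binding. The element was taken as a pair of adjoining 10-base repeats on both strands of hg38, the build to which the authors aligned. The search covered 5000 bases on either side of the annotated gene start. The fourth base C and the seventh base G of each repeat had to match, and up to 2 other mismatches were allowed in the 20 bases. Sites are written on the strand of the gene, with the 4-base core of each repeat in capitals. The group with higher RNA in the libraries labelled knockout gave 3 sites around this start. The first lay 1840 bases before the start of *BTG2* (chr1:203303642-203303661), the next in an intron of *MDM2* 756 bases after its start (chr12:68808923-68808942) and the last in an intron of *ZMAT3* 2018 bases after its start (chr3:179070188-179070207).
BTG2: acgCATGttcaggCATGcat
MDM2: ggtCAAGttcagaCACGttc
ZMAT3: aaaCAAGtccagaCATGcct
The *ZMAT3* site matched in every base. The site of *CDKN1A*, the gene with nearly flat RNA, overlapped the outermost annotated start and an exon of one of its longer transcripts (chr6:36676449-36676468), and that of *GDF15*, the gene with lower RNA, lay 774 bases before the outermost start (chr19:18373947-18373966).
CDKN1A: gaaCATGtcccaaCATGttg
GDF15: agaCCTGcccggaCATGtcc
*FAS* and *GDF15* have annotated transcripts that begin far upstream of the canonical one. With the window placed at the canonical start, a choice made after the data were seen, *FAS* gained a site 520 bases downstream of that start (chr10:88991309-88991328) and *GDF15* was represented by an intronic site 840 bases upstream of it (chr19:18385308-18385327).
FAS: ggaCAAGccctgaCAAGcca
GDF15 canonical window: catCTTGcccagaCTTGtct
Matches were thus present next to genes with higher, flat and lower RNA alike.

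Around the outermost start, 6 of the 10 genes had a match, *RRM2B* being the sixth with an intronic site that is not printed, compared with 7.57% of 20033 protein-coding genes and with 22 of 81 other p53-activated genes (27.2%). Around the canonical start the number was 7 of 10, compared with 7.65% of protein-coding genes and again 27.2% of the other p53-activated genes. With at most 1 mismatch, 3 of the 10 genes kept a match around the outermost start, compared with 1.1% of protein-coding genes. Around the canonical start 2 of the 10 did, compared with 1.08%. In both windows the share of the other p53-activated genes was then 9.88%. *SESN1*, *SESN2* and *FDXR* had no match in either window, which says only that such a sequence is not in these bases.

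Between the libraries labelled *USP22* knockout and the control libraries, 6 of the 10 genes differed by at least 1.5-fold upwards (*BTG2*, *SESN1*, *FAS*, *MDM2*, *SESN2* and *ZMAT3*), a size that 12.1% of the 15150 tested genes reached. One gene, *GDF15*, differed by at least 1.5-fold downwards, as did 10.8% of tested genes. The differences of *RRM2B*, *CDKN1A* and *FDXR* were smaller. Just inside the 1.5-fold limit lay *ZMAT3*, at 1.52-fold higher, and just outside it *FDXR*, at 1.47-fold lower. The 2 groups were free of overlap for 9 of the 10 genes, as they were for 75.9% of tested genes.

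Growth arrest and p53 feedback were represented by *MDM2*, *BTG2* and *CDKN1A*, of which the former pair stood higher and the last was nearly flat. *MDM2* encodes the ubiquitin ligase that marks p53 for degradation. Its counts were 3896 and 3893 in the control, against 7156 and 7410 under the knockout label. Both of the latter lay far above both control values, which were nearly identical. The level went from 63.2 ± 1.06 CPM to 112 ± 4.16 CPM (SD, n = 2 each), a log2 difference of 0.83 (standard error 0.045) or 1.77-fold. *MDM2* lies on the plus strand of chromosome 12 (chr12:68808177-68845544, hg38) and shares 3348 bases with *CPM*, a gene on the opposite strand with 375 to 682 counts per library.

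*BTG2* encodes an antiproliferative protein that recruits the deadenylases which shorten mRNA tails. It had the greatest difference of the 10 genes. The control values were 1100 and 1138 counts, and those under the knockout label 2651 and 2819. No pair of libraries across the groups differed by less than 1.15 on the log2 scale. The mean level was 18.1 ± 0.142 CPM in the control and 42.0 ± 2.35 CPM under the knockout label, 2.32-fold higher (log2 1.21, standard error 0.071). Of all tested genes, 96.2% had a lower log2 difference. The gene lies at chr1:203305491-203309602 on the plus strand.

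*CDKN1A* encodes p21, the inhibitor of cyclin-dependent kinases through which p53 holds cells in G1. Its 4 libraries had 8460 and 9692 counts in the control and 10386 and 9861 counts under the knockout label. In CPM the second control library, at 155, lay between the libraries labelled knockout, at 158 and 153, so the groups overlapped. The means were 147 ± 11.8 CPM and 155 ± 3.75 CPM. The fitted log2 difference of 0.08 (standard error 0.053) was smaller than the log2 gap of 0.16 between the control libraries themselves, and without control replicate 1 it fell to -0.00025. *CDKN1A* occupies chr6:36676460-36687337 on the plus strand, and *DINOL*, an antisense RNA that overlaps it, was listed at 0 in all 4 libraries.

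*FAS* and *ZMAT3* both stood higher under the knockout label. *FAS* encodes the death receptor that binds FAS ligand and starts the extrinsic apoptosis pathway. Counts of 964 and 912 in the control stood against 1952 and 1815 under the knockout label. The groups lay far apart, and the level went from 15.2 ± 0.842 to 28.9 ± 1.12 CPM. This was a 1.9-fold difference (log2 0.93, standard error 0.082). *ZMAT3*, which encodes an RNA-binding zinc finger protein that acts on splicing, had 4733 and 5104 counts in the control and 7702 and 8099 counts under the knockout label, or 79.7 ± 2.96 and 121 ± 5.84 CPM. Its log2 difference of 0.61 (standard error 0.048) dropped below 1.5-fold when control replicate 1 or knockout replicate 2 was left out, the lowest value being 0.56. *ZMAT3* lies on the minus strand at chr3:178960121-179072215.

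The sestrins restrain mTORC1 through the GATOR complexes, with SESN2 sensing leucine, and limit oxidative damage. *SESN1* gave 577 and 616 counts in the control and 1231 and 1251 under the knockout label. *SESN2* gave 839 and 885 counts in the control and 1620 and 1605 under the knockout label. For both genes the libraries labelled knockout stood clear of the control, and replicates differed little from each other. The level of *SESN1* was 9.67 ± 0.291 CPM in the control and 19.1 ± 0.457 CPM under the knockout label, 1.97-fold higher (log2 0.98, standard error 0.091). The level of *SESN2* was 14.0 ± 0.301 CPM and 24.8 ± 0.148 CPM, 1.77-fold higher (log2 0.83, standard error 0.081). *SESN1* lies at chr6:108984309-109094846 on the minus strand and *SESN2* at chr1:28259518-28282491 on the plus strand.

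*RRM2B* encodes the p53-inducible small subunit of ribonucleotide reductase, which makes deoxyribonucleotides for repair. The control values were 2713 and 2963 counts and those under the knockout label 4166 and 4048, with no overlap. The level was 46.0 ± 2.12 and 63.1 ± 0.488 CPM, a difference of 1.37-fold (log2 0.46, standard error 0.052) and so below the 1.5-fold limit. The gene lies on the minus strand at chr8:102204502-102238961.

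*GDF15* and *FDXR* stood lower under the knockout label. *GDF15* encodes a secreted stress cytokine of the TGF-β superfamily, which signals to the brain through the receptor GFRAL. Its counts were 12150 and 12815 in the control and 8665 and 8032 under the knockout label. Neither of the latter came near the control values. The level was 202 ± 4.35 CPM in the control and 128 ± 5.26 CPM under the knockout label, and it fell by 0.66 on the log2 scale (standard error 0.042), 1.58-fold. Only 9.01% of tested genes had a lower log2 difference. *GDF15* lies at chr19:18374731-18389176 on the plus strand.

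*FDXR* encodes ferredoxin reductase, the mitochondrial enzyme that passes electrons to ferredoxin for steroid and iron-sulfur cluster synthesis. Its control values were 2391 and 2280 counts, compared with 1827 and 1530 under the knockout label. The groups did not overlap, but the libraries labelled knockout lay further apart from each other (0.23 on the log2 scale) than those of any other of the 10 genes. The level was 37.9 ± 1.89 and 25.8 ± 2.9 CPM, a log2 difference of -0.56 (standard error 0.084). Without control replicate 2 or knockout replicate 1 it passed the 1.5-fold limit, and the leave-one-out values ran from -0.69 to -0.45. *FDXR* lies at chr17:74862497-74873031 on the minus strand.

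To compare levels between genes, CPM was divided by the length of the canonical transcript in kilobases. In the control libraries *GDF15* was highest at 169 CPM per kb, followed by *CDKN1A* at 69.5 and *FDXR* at 20.5. *RRM2B* (9.64), *ZMAT3* (8.92), *MDM2* (8.43) and *BTG2* (6.65) came next in CPM per kb, each separated from its neighbour. *FAS* (4.12) and *SESN2* (4.04) overlapped, and *SESN1* was lowest at 1.71 CPM per kb. Under the knockout label *GDF15*, at 107 CPM per kb, and *CDKN1A*, at 73.4, kept the top places. The 5 genes that followed, *BTG2* (15.4), *MDM2* (14.9), *FDXR* (13.9), *ZMAT3* (13.6) and *RRM2B* (13.2), overlapped from each neighbour to the next in CPM per kb. *FAS* (7.82), *SESN2* (7.15) and *SESN1* (3.37) closed the order, each separated from the next. Per length, the 3 most abundant genes of the control were thus the flat and the lower ones.

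**Figure D1:**
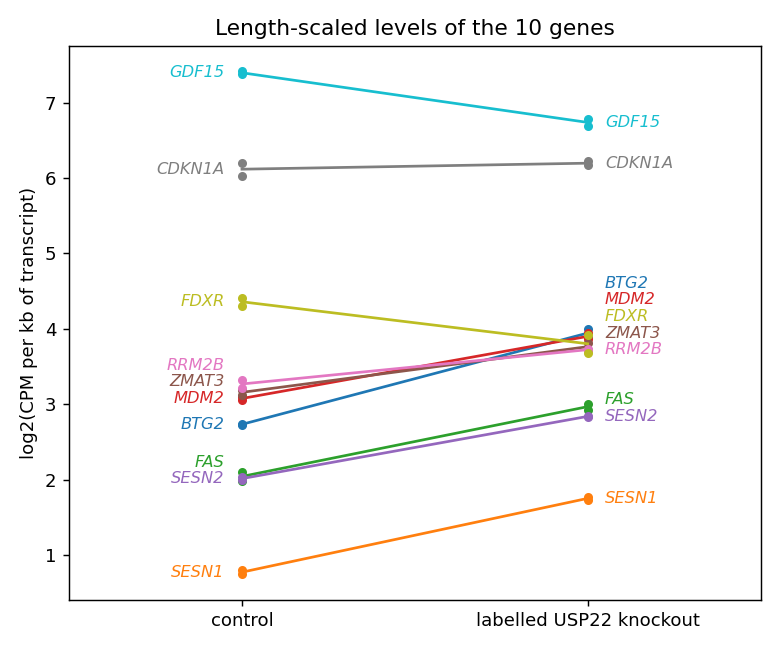
The vertical axis gives log2 of CPM per kb of the canonical transcript; each point is 1 library, each line joins the means of the control and of the libraries labelled *USP22* knockout, and each colour is 1 gene. *BTG2*, *MDM2*, *FDXR*, *ZMAT3* and *RRM2B*, spread from 6.65 to 20.5 CPM per kb in the control, lie together between 13.2 and 15.4 under the knockout label.

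*FAS* was higher while most tested genes around it were lower. It lies on the long arm of chromosome 10 (chr10:88953813-89029605, plus strand), where 354 of 431 tested genes (82.1%) had a log2 difference below 0 and the median was -0.41, compared with 0.067 for the 124 tested genes of the short arm and 0.001 for all tested genes. Within 2 Mb of its start, 24 of 27 other tested genes were below 0, with a median of -0.41, and 0 reached the value of *FAS*. Within 5 Mb, 45 of 50 were below 0 and 0 reached it. On the whole long arm 21 of 431 genes did. The part of this regional difference in the value of *FAS* was not tested.

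**Figure D2:**
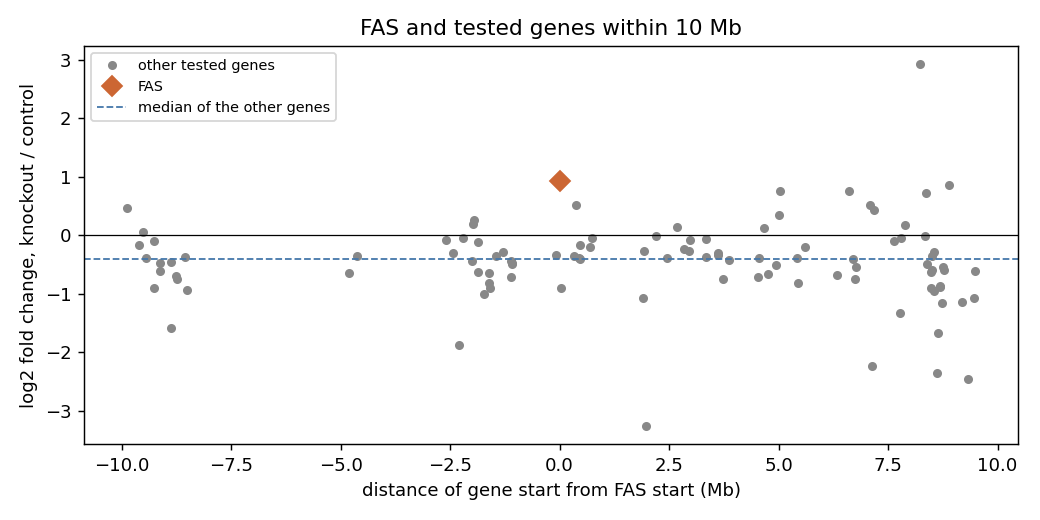
Each grey point is a tested gene within 10 Mb of *FAS*, placed by the distance of its start (Mb) and its log2 difference between libraries labelled *USP22* knockout and control; the orange diamond is *FAS* and the dashed line the median of the other genes. *FAS*, at 0.93, lies above every gene within 5 Mb on either side, where 45 of 50 genes lie below 0.

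The annotation places 2 other protein-coding genes over *FAS*. *ACTA2*, which encodes smooth muscle actin on the opposite strand, shares 37527 bases with it and had 739, 783, 465 and 393 counts in control replicates 1 and 2 and knockout replicates 1 and 2. *STAMBPL1*, on the same strand, shares 21341 bases and had 2560, 2709, 2268 and 2135 counts. Both had lower counts under the knockout label while *FAS* had higher ones. The strand setting of the counting is not given in the sources used here, so how reads were divided among the 3 genes is uncertain.

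The neighbours of the other 9 genes were closer to 0. Their median log2 difference within 2 Mb ranged from -0.22 (*GDF15*, 87 genes) to 0.18 (*RRM2B*, 14 genes). It was 0.062 around *BTG2* (43 genes), 0.033 around *MDM2* (17), 0.14 around *ZMAT3* (16), -0.031 around *SESN2* (52), -0.028 around *SESN1* (24), -0.14 around *CDKN1A* (35) and -0.13 around *FDXR* (69). Around *GDF15*, 7 of the 87 genes were as low as *GDF15* or lower, and around *FDXR* 9 of 69 were. As around *FAS*, 0 neighbours within 2 Mb reached the value of *BTG2*, *SESN1* or *MDM2*. The value of *ZMAT3* was reached by 1 of 16 and that of *SESN2* by 2 of 52. For *RRM2B* it was 4 of 14 and for *CDKN1A* 8 of 35.

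The base composition of the transcripts differed along the split. *RRM2B* (35.1% GC), *FAS* (38.0%), *ZMAT3* (38.2%), *MDM2* (39.5%) and *SESN1* (40.6%) were the least GC-rich of the 10 and had positive log2 differences, whereas *GDF15* (62.9%) and *FDXR* (63.5%) were the most GC-rich and had negative ones. *BTG2* (50.5%), *CDKN1A* (57.3%) and *SESN2* (59.6%) departed from that order. Over all tested genes the median log2 difference went from 0.2 for 2300 transcripts below 40% GC to -0.17 for 2327 transcripts at 60% GC or more. Median transcript length went along with it, from 4274 to 2336 bases. After removal of trends on GC content and length, chosen after the data were seen, *SESN2* (0.92), *BTG2*, *SESN1* (0.75) and *FAS* (0.72) were still at least 1.5-fold higher. *MDM2* came to 0.54, *ZMAT3* to 0.27, *RRM2B* to 0.16, *CDKN1A* to 0.19, *FDXR* to -0.39 and *GDF15* to -0.47 in log2 difference. No sign changed, and 0 of the 10 genes remained at least 1.5-fold lower. The share of all tested genes of that size after the correction is not given here.

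Whether p53 targets outside the 10 genes moved as a group was examined with 81 further genes reported to be p53-activated, of which 76 were tested. Of these, 9 rose (11.8%) and 6 fell (7.89%) at an adjusted p-value below 0.05 and at least 1.5-fold by edgeR's quasi-likelihood test, compared with 8.88% and 7.25% of all tested genes. The other 61 were not called. Without the fold limit, 27 were higher (35.5%) and 21 lower (27.6%), compared with 26.8% and 25.8% of all tested genes. The median log2 difference was 0.001, the value of all tested genes, and 38 of 76 were above 0.

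Among cell cycle and feedback genes, 1 of 17 tested rose (5.88%) and 3 fell (17.65%), compared with 8.88% and 7.25% of all tested genes. Without the fold limit 4 were higher (23.5%) and 5 lower (29.4%), compared with 26.8% and 25.8%. *PLK2*, a polo-like kinase, rose by 0.68 on the log2 scale (1874, 1782, 3047 and 3148 counts, adjusted p = 1.33e-05). *GADD45A*, which links DNA damage to growth arrest, fell by 0.79 (6476, 6805, 4090 and 4029 counts, adjusted p = 4.61e-07). The related kinase gene *PLK3* fell by 0.66 (adjusted p = 6.12e-05) and the receptor tyrosine kinase gene *EPHA2* fell by 0.63 (adjusted p = 7.68e-07). *PPM1D*, which encodes the phosphatase that dephosphorylates p53, was not called (log2 difference -0.17, adjusted p = 0.0813). All adjusted p-values are from the same edgeR test.

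Among cell death genes, 2 of 19 rose (10.5%) and 1 fell (5.26%), again compared with 8.88% and 7.25% of all tested genes. Without the fold limit 8 were higher (42.1%) and 5 lower (26.3%), compared with 26.8% and 25.8%. *APAF1*, the scaffold of the apoptosome, rose by 0.73 (1134, 1160, 2090 and 1933 counts, adjusted p = 2.72e-05). *BBC3*, which encodes the BH3-only protein PUMA, fell by 0.65 (2085, 2117, 1463 and 1375 counts, adjusted p = 3.68e-05). *EDA2R*, a receptor of the TNF receptor superfamily, was also called higher, from 0 and 8 counts to 33 and 65. It lay outside the naming rule because of its low level, was singled out after its values were seen, and lost its call without knockout replicate 2 and with no filter on low counts. *BAX*, the pore-forming effector, missed the fold limit (log2 difference -0.52, adjusted p = 0.000109) but passed it without knockout replicate 1.

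Of 7 DNA repair genes, 1 rose (14.3%) and 0 fell, compared with 8.88% and 7.25% of all tested genes. Without the fold limit 4 were higher (57.1%) and 0 lower, compared with 26.8% and 25.8%. The gene that rose was *REV3L*, the catalytic subunit of polymerase zeta, by 0.65 (adjusted p = 4.68e-05). The call of *REV3L* was lost without control replicate 1. Of 14 metabolic genes, *SCO2*, which is needed to assemble cytochrome c oxidase, rose by 0.94 from 109 and 131 counts to 290 and 198 (adjusted p = 0.00538), a call lost without knockout replicate 1. *SCO2* was the only gene of the 14 called higher (7.14%), and 0 were called lower, compared with 8.88% and 7.25% of all tested genes. Without the fold limit 4 were higher (28.6%) and 6 lower (42.9%), compared with 26.8% and 25.8%. Of 19 genes with other roles, 4 rose (21.05%) and 2 fell (10.5%), again compared with 8.88% and 7.25%. Without the fold limit 7 were higher (36.8%) and 5 lower (26.3%), compared with 26.8% and 25.8%. *ZNF79*, a zinc finger gene, rose by 1.55 (57, 70, 200 and 192 counts, adjusted p = 0.000278), *ANKRA2*, an ankyrin repeat gene, by 0.9 (adjusted p = 6.67e-05) and *DCP1B*, an mRNA decapping gene, by 0.89 (adjusted p = 0.000225). *INKA2*, named after its values were seen, rose from 36 and 39 to 94 and 134 counts. The cytokine gene *LIF* fell by 0.59 (adjusted p = 1.6e-05), and its call was lost without control replicate 2.

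**Figure D3:**
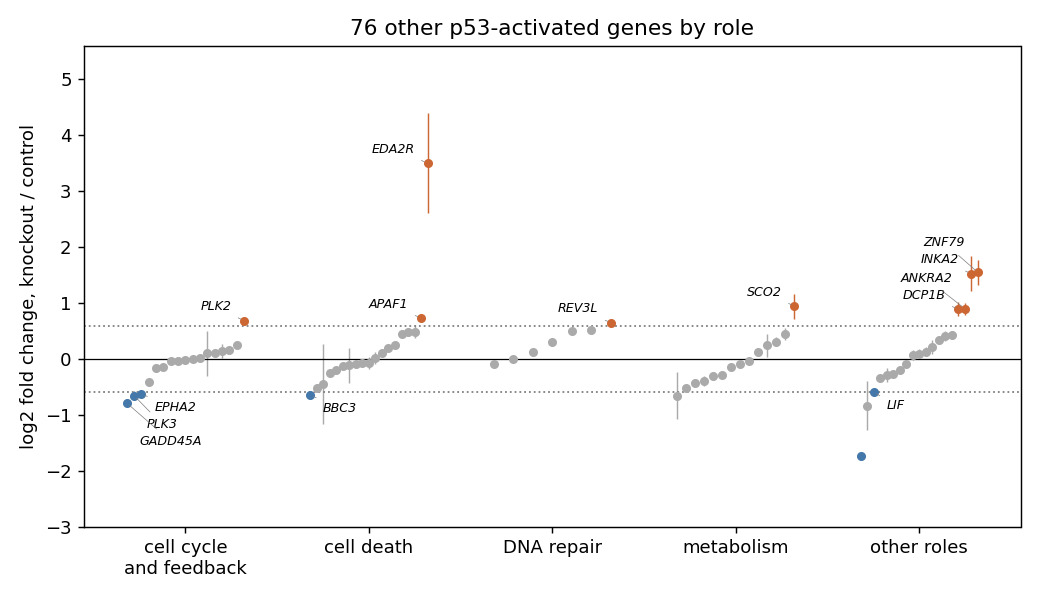
Each point is 1 of 76 tested p53-activated genes other than the 10, grouped by role, with its log2 difference between libraries labelled *USP22* knockout and control and its standard error as a bar; orange genes were called higher, blue genes lower, grey genes were not called, the dotted lines mark 1.5-fold, and called genes carry their symbol where they are named in the text. The 9 orange genes occur in every role, and the 6 blue genes in cell cycle and feedback, cell death and other roles. Each role held 7 to 19 tested genes, and genes lower by less than the fold limit are grey.

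The genes of this list nearest to *BTG2* in their pattern over the 4 libraries, by Euclidean distance of centred log2 CPM, were *ANKRA2* (0.336) and *DCP1B* (0.365). Those nearest to *GDF15* were *BBC3* (0.0437) and *EPHA2* (0.0453). With 2 groups of 2 libraries, this distance largely restates the log2 difference and does not show shared regulation. The median GC content was 45.8% in the 9 genes that rose, 58.7% in the 6 that fell and 47.1% in the 61 that were not called. The ranges overlapped, from 39.9% to 64.1% in the genes that rose and from 50.7% to 69.7% in those that fell, with *SCO2* at the upper end of the former.

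With GC content and length corrected for, and limma in place of edgeR's test, 6 of the 76 genes were called higher and 4 lower. The share of all tested genes called in this setting is not given here. What part the change of test has in the lost calls was not tested. Among the calls lost, the log2 difference went from 0.73 to 0.51 for *APAF1*, from 0.65 to 0.32 for *REV3L* and from -0.65 to -0.41 for *BBC3*. It moved less for *EDA2R* (3.51 to 3.32, adjusted p = 0.0864 after correction with limma), *PLK3* (-0.66 to -0.53), *EPHA2* (-0.63 to -0.54) and *LIF* (-0.59 to -0.52). The calls of *BTG1* (-0.41 to -0.65) and *RAP2B* (-0.34 to -0.6), genes named after their values were seen, were gained as lower. With library size alone, *EPHA2* and *LIF* also lost their calls. What part base composition has in these values was not tested further.

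Upstream of the targets, 23 of 24 genes that regulate p53 were tested, of which 2 rose (8.7%, compared with 8.88% of all tested genes) and 1 fell (4.35%, compared with 7.25%). *HIPK2*, a kinase that phosphorylates p53, rose by 0.78 (1562, 1621, 2755 and 3006 counts, adjusted p = 1.07e-05). *MDM4*, the partner of MDM2 in holding p53 down, rose by 0.71 (2400, 2529, 3974 and 4551 counts, adjusted p = 2.41e-05). *CDKN2A*, the locus of ARF, which inhibits MDM2, and of the kinase inhibitor p16, fell by 0.6 (18369, 21636, 14652 and 13291 counts, adjusted p = 3.51e-05). The other 20 were not called. The GC and length correction, tested with limma, left 0 regulators called, again without a share of all tested genes beside it. The log2 differences were then 0.56 for *HIPK2*, 0.44 for *MDM4* and -0.44 for *CDKN2A*. The call of *CDKN2A* was also lost without control replicate 2, without knockout replicate 2 and with library size alone.

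Paralogs and partners of the 10 proteins were counted next. Of 9 tested paralogs 1 rose (11.1%, compared with 8.88% of all tested genes) and 0 fell (compared with 7.25%). Without the fold limit 2 were higher (22.2%, compared with 26.8%) and 4 lower (44.4%, compared with 25.8%). The paralog *CDKN1C*, which encodes the p21 relative p57, rose by 1.01 (1978, 1961, 4368 and 3995 counts, adjusted p = 6.75e-07), while *CDKN1B*, which encodes p27, was lower by less than the fold limit (adjusted p = 1.11e-05). Of 20 tested partners, 3 rose (15.0%, again compared with 8.88%) and 0 fell, and without the fold limit 6 were higher and 5 lower. The cyclin E genes *CCNE2* (by 1.18, 510, 499, 1174 and 1242 counts, adjusted p = 6.81e-06) and *CCNE1* (by 1.03, 169, 247, 465 and 431 counts, adjusted p = 0.00091) encode partners of CDK2, the kinase that p21 inhibits. *FADD*, the adaptor that joins FAS to caspase 8, rose by 0.78 (1065, 1174, 2036 and 2015 counts, adjusted p = 2.06e-05). *FASLG*, the FAS ligand, and *GFRAL*, the receptor of GDF15, were listed at 0 in all 4 libraries.

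Because p21 represses cell cycle genes through the DREAM complex, 24 of these were counted beside the flat *CDKN1A*. *AURKA*, the mitotic kinase gene, rose by 0.6 (adjusted p = 1.03e-06) and *CDK1*, the central kinase of mitotic entry, fell by 0.65 (13000, 13493, 9024 and 8838 counts, adjusted p = 5.87e-07). Each was 1 of 24 (4.17%), compared with 8.88% and 7.25% of all tested genes. Without the fold limit 9 were higher and 9 lower (37.5% each), compared with 26.8% and 25.8%. *CDK1* lies on the long arm of chromosome 10 (chr10:60778331-60794852), whose genes had a median log2 difference of -0.41. Over the 24 genes counted, the median log2 difference was 0.024. The value of *AURKA* lay at the fold limit, and its call was lost without knockout replicate 2 (log2 difference 0.58) and after the GC and length correction (0.54).

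*SESN2* and *GDF15* are also targets of ATF4 and went opposite ways. Of 20 genes of the ATF4 response, 1 rose (5.0%, compared with 8.88% of all tested genes) and 4 fell (20%, compared with 7.25%). Without the fold limit 4 were higher (20%, compared with 26.8%) and 13 lower (65.0%, compared with 25.8%), and the median log2 difference was -0.18, compared with 0.001 for all tested genes. *CHAC1*, which degrades glutathione, rose by 1.77 (148, 199, 599 and 649 counts, adjusted p = 1.25e-05). *PPP1R15A*, which encodes the phosphatase subunit GADD34, fell by 2.11 (28519, 27818, 7078 and 6744 counts, adjusted p = 8.9e-10), and *DDIT4*, an inhibitor of mTORC1, fell by 1.16 (37934, 37726, 18201 and 17472 counts, adjusted p = 1.12e-08). *DDIT4*, too, lies on the long arm of chromosome 10 (chr10:72273919-72276036). *VLDLR* and *NUPR1*, named after their values were seen, were the others that fell, and *VLDLR* lost its call without control replicate 1. *ATF4* itself differed by 0.12 (adjusted p = 0.0109).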

How the data were processed

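RNA-seq of 2 control and 2 libraries labelled *USP22* knockout was used. The authors aligned reads to hg38 with HISAT2 2.2.1 and deposited whole-number gene counts from StringTie 2.2.1, without normalization. The annotation and strand setting are not given in the sources used here. The 10 genes, the gene lists and the tests were chosen with earlier results of these data known.

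Differences were fitted with edgeR 4.0.16 in R 4.3.3 (TMM, filterByExpr with a minimum count of 10, quasi-likelihood test, Benjamini-Hochberg adjustment over 15150 genes). The thresholds for a call, taken from the study, were an adjusted p-value below 0.05 and a difference of at least 1.5-fold. Each p measures only the spread between these libraries, which may be technical. With each count taken as a single read, replicates differed by more than sampling noise (mean chi-square per gene 8.11 in the control and 8.51 in the other group). Whether a StringTie count equals a single read is not stated in the sources used here. If each count is a single read, a gene listed at 0 may have up to 3 counts (0.0463 to 0.0484 CPM), for counting error only. The bound is higher if a single read adds several counts.

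The text names the 10 genes, *USP22*, *MDM4*, *PPM1D*, the p53-activated genes nearest to the extremes of the 10, and, among genes averaging at least 1 log2 CPM whose groups do not overlap, the largest changes called in each direction, up to 8 for p53-activated genes and up to 2 for each other list. Other genes given with values were added after these had been seen. Results of some genes that the rule takes are not reported here. Positions, GC content and canonical transcripts came from GENCODE 44 (25763 of 28278 symbols matched). A boundary of 42 Mb approximated the centromere of chromosome 10. Alternatives were DESeq2 1.42.0, other normalizations and filters, the replicate block, no fold limit and leaving out each library, where a lone library was assumed to vary like the other group. The GC and length correction (lowess span 0.3, limma 3.58.1) and the canonical site window were chosen after the data were seen. The main edgeR fit was tested on simulated counts, and the site search on a planted site. The alternative fits were not tested in this way.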

Additional observations from a re-analysis of the deposited data

How the results depend on the processing

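Of the 10 genes, 6 were at least 1.5-fold higher and 1 at least 1.5-fold lower. Leaving out each library gave 5 to 6 and 1 to 2, and the GC and length correction gave 4 and 0. Shares of all tested genes under these alternatives are not given here. The log2 difference of *CDKN1A* ran from -0.0002515 without control replicate 1 to 0.1634 when each library was left out. No other of the 10 genes changed sign under any alternative run. With library size alone, the median of all tested genes moved from 0.001 to 0.053.

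Without the fold limit, calls went from 9 to 27 higher and from 6 to 21 lower among p53-activated genes, from 2 to 8 and from 1 to 8 among p53 regulators, from 1 to 9 in both directions among p21-DREAM genes, and from 1 to 4 and from 4 to 13 among ATF4 genes. The 8 regulators in each direction were 34.8% of those tested, compared with 26.8% and 25.8% of all tested genes. The GC and length correction, with limma in place of edgeR's test, left 0 regulators called in either direction. It left 0 p21-DREAM genes called higher, and the share of all tested genes called there is not given. With library size alone, 0 regulators were called lower and 2 p21-DREAM genes higher. Leaving out each library gave 0 to 1 regulators called lower and 0 to 1 p21-DREAM genes called higher. For the calls that leaving out a library or another setting changed, the cause was not tested, beyond the fold limit itself.

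Same-numbered libraries did not deviate together (correlation 0.0324), so the replicate numbers were not read as pairs. With the replicate block, 9 p53-activated genes were higher and 6 lower, as without it, and 3 regulators were higher in place of 2.

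From 2 Mb to 5 Mb, the median log2 difference of the neighbours changed from -0.028 to 0.043 around *SESN1*, from 0.033 to 0.147 around *MDM2*, from 0.062 to 0.159 around *BTG2*, from 0.135 to 0.061 around *ZMAT3* and from 0.184 to 0.088 around *RRM2B*. With at most 1 mismatch, 3 genes kept a p53 site around the outermost start in place of 6. With 2 libraries per group, small differences such as that of *CDKN1A* were not resolved from the spread.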
